A study of Homo sapiens with 24 samples.

Results

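The 10 genes described here encode the inhibitors, the subunits and an anchoring protein of protein kinase A (PKA): PKIA, PKIB, PKIG, AKAP12, PRKACA, PRKACB, PRKAR1A, PRKAR1B, PRKAR2A and PRKAR2B. They were taken as a family because PKIB stood higher in the HCT116 clones labelled knockout, and AKAP12 stood higher in those of both HCT116 and HT1080. They were measured by 25 of the 47323 probes of the array, out of 30113 probes annotated to 1 gene and 20046 genes in all. PKIA and PKIG had 3 probes each, PKIB 2, AKAP12 4, PRKACA 2, PRKACB 5, PRKAR1A 3, and PRKAR1B, PRKAR2A and PRKAR2B 1 each.

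The study made TALEN knockouts of Rap1, the shelterin protein encoded by TERF2IP, in 3 human lines and profiled total RNA of single clones on 24 Illumina arrays. A TALEN is a nuclease whose DNA-binding part is designed for its target. HCT116, from a colorectal carcinoma, had 3 clones labelled wild type (15, 20 and 23) and 3 labelled knockout (10, 21 and 28). HT1080, from a fibrosarcoma, had 2 labelled wild type (2 and 9) and 2 labelled knockout (8 and 21), and every HCT116 or HT1080 clone had 2 arrays. ARPE-19, from retinal pigment epithelium, had 1 array each of wild-type clone 23, the parental culture and knockout clones 25 and 30. No treatment is given for any group. A clone descends from 1 cell, so differences between single clones are part of every group, and whether its 2 arrays represent separate cultures is not stated in the labels.

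PKA is the main receptor for the second messenger cyclic AMP. Its regulatory subunits hold the catalytic subunits inactive until cyclic AMP binds to them and the catalytic subunits are freed. The PKI proteins block free catalytic subunits through a pseudosubstrate and help to export them from the nucleus, while A-kinase anchoring proteins (AKAPs) tether the holoenzyme to particular places in the cell. AKAP12, also known as gravin or SSeCKS, is a scaffold at the cell membrane and cortex that binds PKA, protein kinase C and other signalling proteins. In the nucleus PKA phosphorylates CREB, a transcription factor that binds the cyclic AMP response element (CRE).

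All values are log2 differences from the median of the same probe over the arrays of its line, so they carry no level, and neither genes nor lines can be ranked by abundance. The markers of epithelial, mesenchymal and pigment epithelial cells could not be checked as levels for the same reason, but their differences could. In HCT116 the 13 epithelial probes had a median difference of 0.23, the 16 mesenchymal probes -0.0069 and the 12 pigment epithelial probes 0.073, and none passed. The mesenchymal transcription factor gene TWIST1 gave -0.82 ± 0.26 there without overlap (limma, adjusted p = 0.591) and S100A4 -1.30 ± 0.55 and -1.23 ± 0.55 with overlap. In HT1080 the medians were -0.087, -0.066 and -0.046, and none passed. TWIST1 lay the other way in that line, at 0.49 ± 0.17 without overlap (limma, adjusted p = 0.864). S100A4 kept its HCT116 direction there, at -0.60 ± 0.27 without overlap and -0.30 ± 0.28 with overlap. Of the 16 mesenchymal probes, 3 had all HT1080 knockout clones higher and 4 had them all lower, beside 11.7% and 25.3% of all probes. In ARPE-19 the medians were -0.047, -0.037 and 0.098, and TWIST1 fell (-0.81 ± 0.11; limma, adjusted p = 0.022). Their part in the differences below was not tested. The targeted gene, TERF2IP, was separated by label in HT1080, at 1.11 to 1.25 on the wild-type arrays and -1.79 to -1.11 on the knockout arrays. In HCT116 the labels overlapped, since wild-type clone 23 stood at 1.45 and 1.21 while the wild-type clones 15 and 20 lay between -0.28 and 0.12, overlapping the knockout range of -0.77 to 0.048. In ARPE-19 the wild-type arrays at 0.013 and -0.013 lay between the knockout arrays at 0.16 and -0.12. Genotypes are therefore given as labelled throughout.

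PKIB lies at chr6:122471921-122726373, AKAP12 at chr6:151239967-151358559 and PRKACB at chr1:84078079-84238498 (GRCh38.p14). The RefSeq promoter windows of these 3 genes are shown because their probes stood out among the members, a choice made after their values were seen. Each window runs from 250 bases before to 50 bases after the annotated start, in the direction of the gene, which is the plus strand for all of them. The full CRE, TGACGTCA, and its half-site, TGACG, were searched on both strands, and every full CRE also holds half-sites. Capitals mark half-sites, all of which lay on the opposite strand and therefore read as CGTCA.
PKIB promoter, chr6:122471671-122471970: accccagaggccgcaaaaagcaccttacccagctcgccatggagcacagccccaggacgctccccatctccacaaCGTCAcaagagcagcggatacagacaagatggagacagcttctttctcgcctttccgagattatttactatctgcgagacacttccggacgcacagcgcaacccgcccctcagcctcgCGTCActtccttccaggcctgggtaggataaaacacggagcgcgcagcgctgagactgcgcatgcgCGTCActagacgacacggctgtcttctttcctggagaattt
AKAP12 promoter, chr6:151239717-151240016: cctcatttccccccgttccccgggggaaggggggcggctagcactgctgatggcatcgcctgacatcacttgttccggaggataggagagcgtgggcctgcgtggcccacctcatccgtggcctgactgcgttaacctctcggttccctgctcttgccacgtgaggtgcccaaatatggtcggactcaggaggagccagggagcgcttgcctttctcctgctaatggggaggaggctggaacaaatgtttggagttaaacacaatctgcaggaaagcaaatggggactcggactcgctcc
PRKACB promoter, chr1:84077829-84078128: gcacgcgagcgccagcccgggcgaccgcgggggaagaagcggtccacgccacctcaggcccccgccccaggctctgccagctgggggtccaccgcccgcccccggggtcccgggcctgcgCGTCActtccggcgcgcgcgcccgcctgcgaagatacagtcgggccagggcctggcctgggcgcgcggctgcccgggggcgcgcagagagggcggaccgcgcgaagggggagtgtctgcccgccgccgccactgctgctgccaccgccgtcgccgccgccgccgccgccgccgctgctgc

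The PKIB window held 3 half-sites, starting at -175, -57 and 10 from the start, counted in the direction of the gene. The PRKACB window held 1, at -130, and the AKAP12 window held 0. No window of the 9 members with an entry held the full CRE, and PRKACA had 2 half-sites, PRKAR1A and PRKAR2A 1 each, and PKIG, PRKAR1B and PRKAR2B 0. Among 35116 promoter windows of the same length, 1.85% held a full CRE, 24.6% held at least 1 half-site and 1.4% held 3 or more. A match of letters is a description of the window and no evidence of binding.

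PKIB, the beta form of the PKA inhibitor, had the largest difference of any member. With probe ILMN_2337263 the HCT116 arrays labelled wild type read -0.54 and -0.97 in clone 15, -0.57 and -0.61 in clone 20 and -0.45 and -0.72 in clone 23. The arrays labelled knockout read 2.09 and 2.08 in clone 10, 0.84 and 0.45 in clone 21 and 0.65 and 0.93 in clone 28. Every knockout array lay above every wild-type array, and clone 10 stood well above the other two knockout clones. The clone means differed by 1.81 ± 0.30 (SE of the limma fit, n = 3 and 3 clones), a 3.52-fold difference. This is the value on which PKIB was selected, and it carries no test here. The SD between clones was 0.097 for wild type and 0.79 for knockout. Only 0.019% of all probes had a larger absolute difference in HCT116. Without clone 10 the difference was 1.36, and without any one of the other clones it lay between 1.76 and 2.08.

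The same PKIB probe was flat in HT1080, where its 8 arrays lay between -0.14 and 0.094 and the difference was 0.037 ± 0.089 (SE, n = 2 and 2 clones). The other PKIB probe, ILMN_1695002, did not share the HCT116 pattern. Its knockout clones read 0.21 in clone 10, -0.029 in clone 21 and 0.0030 in clone 28, among wild-type clones at -0.088, 0.12 and -0.074. Its difference was 0.077 ± 0.096 in HCT116 and 0.019 ± 0.096 in HT1080. The platform annotation assigns the probes to different PKIB transcripts, NM_032471 for the separated probe and NM_181794 for the flat one. Over the 10 clones of HCT116 and HT1080 the probes correlated at r = 0.61, given as a description of clones that share lines and arrays.

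AKAP12 stood higher in the HCT116 clones labelled knockout with all 4 of its probes, the pattern for which it was chosen. With ILMN_1684836 the wild-type arrays read -0.26 and -0.34 in clone 15, -0.56 and -0.38 in clone 20 and -0.20 and -0.39 in clone 23. The knockout arrays read 0.20 and 0.41 in clone 10, 0.42 and 0.21 in clone 21 and 0.93 and 0.77 in clone 28. The groups did not overlap on any array, and here clone 28, not clone 10, stood highest. The clone means differed by 0.84 ± 0.14 (SE, n = 3 and 3 clones), or 1.80-fold, and by 0.66 without clone 28. The other probes gave 0.72 ± 0.15 (ILMN_2308950), 0.64 ± 0.18 (ILMN_1686846) and 0.32 ± 0.13 (ILMN_1715532), the second of which was 0.40 without clone 28 and the third 0.19 without clone 21 or 0.21 without wild-type clone 23.

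The lowest of these, ILMN_1715532, placed the HCT116 clones in another order. Its knockout clone means were 0 in clone 10, 0.36 in clone 21 and -0.039 in clone 28, against -0.12, -0.083 and -0.43 in wild-type clones 15, 20 and 23. The gap between the groups was therefore narrow, and clone 28, highest with the other 3 probes, was the lowest knockout clone. Over the 10 clones ILMN_1684836 correlated at 0.98 with ILMN_2308950, 0.79 with ILMN_1686846 and 0.47 with ILMN_1715532. The annotated transcripts did not sort the probes, since the pair that correlated at 0.98 is assigned to NM_144497 and NM_005100.

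In HT1080 the 4 AKAP12 probes gave unequal differences. With ILMN_1684836 the wild-type arrays read -0.10 and -0.41 in clone 2 and -0.14 and -0.15 in clone 9, and the knockout arrays read 0.16 and 0.10 in clone 8 and 0.17 and 0.27 in clone 21. The arrays did not overlap, and the difference was 0.38 ± 0.096 (SE, n = 2 and 2 clones), or 1.30-fold. ILMN_2308950 gave 0.33 ± 0.12, with knockout clones at 0.10 and 0.37 above wild-type clones at -0.10 and -0.091, and 0.20 without clone 21. ILMN_1715532 gave 0.048 ± 0.088, with clone means that just failed to overlap, and ILMN_1686846 gave -0.16 ± 0.14, with overlapping clones. The mean of the 4 probes differed by 0.15.

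**Figure D1:**
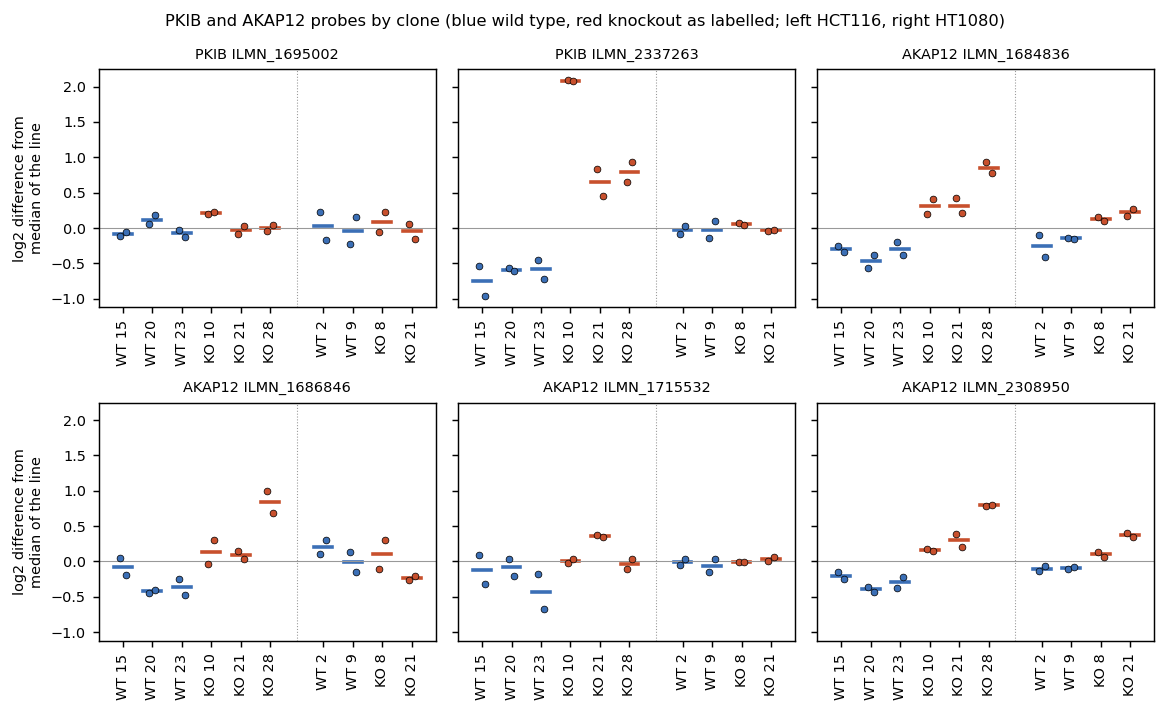
Log2 difference from the median of the line for the 2 PKIB and 4 AKAP12 probes (vertical axis) in each clone of HCT116, left of the dotted line, and HT1080, right of it. Points are single arrays and bars are clone means, blue for wild type and red for knockout as labelled; PKIB ILMN_2337263 separates the HCT116 labels with clone 10 near 2.09, and ILMN_1695002 does not.

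Of the other inhibitors, PKIG, the gamma form, had small differences in HCT116. Its probe ILMN_1796627 gave 0.24 ± 0.085 and ILMN_2406169 gave 0.19 ± 0.084, both without overlap of the clones, while ILMN_1702911 gave 0.13 ± 0.11 with overlap. In HT1080 ILMN_2406169 lay the other way, at -0.24 ± 0.088, with knockout clones at -0.14 in both cases and wild-type clones at 0.14 and 0.072. The arrays of a clone differed much for these probes, with an SD between arrays of 0.21 (ILMN_1796627) and 0.18 (ILMN_2406169) in HCT116. PKIA, the alpha form, overlapped between the labels with all 3 probes in both lines, its differences ranging from -0.094 to 0.34.

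Among the catalytic subunits, PRKACB, which encodes the beta subunit, varied from clone to clone in HCT116. With ILMN_1771523 the knockout arrays read 0.62 and 0.44 in clone 10 and 0.78 and 0.85 in clone 28, but -0.11 and -0.23 in clone 21, and the wild-type arrays lay between -0.15 and 0.062. ILMN_2278112 and ILMN_2374234 repeated this order, with clone means of 0.39 and 0.64 in clone 10, 0.80 and 0.88 in clone 28, and -0.15 and -0.27 in clone 21. The 3 probes correlated with one another at 0.91 to 0.97 over the 10 clones. Because clone 21 lay on the wild-type side, the labels overlapped, and the differences were 0.44 ± 0.20, 0.48 ± 0.20 and 0.47 ± 0.24. They were 0.72 to 0.81 without clone 21 and 0.22 to 0.25 without clone 28. The other 2 PRKACB probes, ILMN_1690314 and ILMN_1759922, gave 0.091 ± 0.086 and 0.011 ± 0.11.

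In HT1080, PRKACB differed by 0.26 ± 0.12 with ILMN_1771523 and by 0.19 ± 0.11 with ILMN_1690314, both without overlap, and by 0.023 to 0.12 with the other 3 probes. The first was 0.13 without wild-type clone 2 and the second 0.083 without knockout clone 21. PRKACA, which encodes the alpha catalytic subunit, stayed within 0.12 of 0 in both lines: -0.078 and 0.076 in HCT116, and -0.0061 and -0.12 in HT1080. The regulatory subunit genes were also close to 0. PRKAR1A, the type I alpha subunit, ranged from -0.15 to -0.015 over its 3 probes and both lines. PRKAR1B, the type I beta subunit, gave -0.024 ± 0.17 in HCT116 and 0.13 ± 0.14 in HT1080. The type II subunits gave -0.11 ± 0.10 and 0.022 ± 0.11 for PRKAR2A and 0.11 ± 0.090 and -0.036 ± 0.091 for PRKAR2B.

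**Figure D2:**
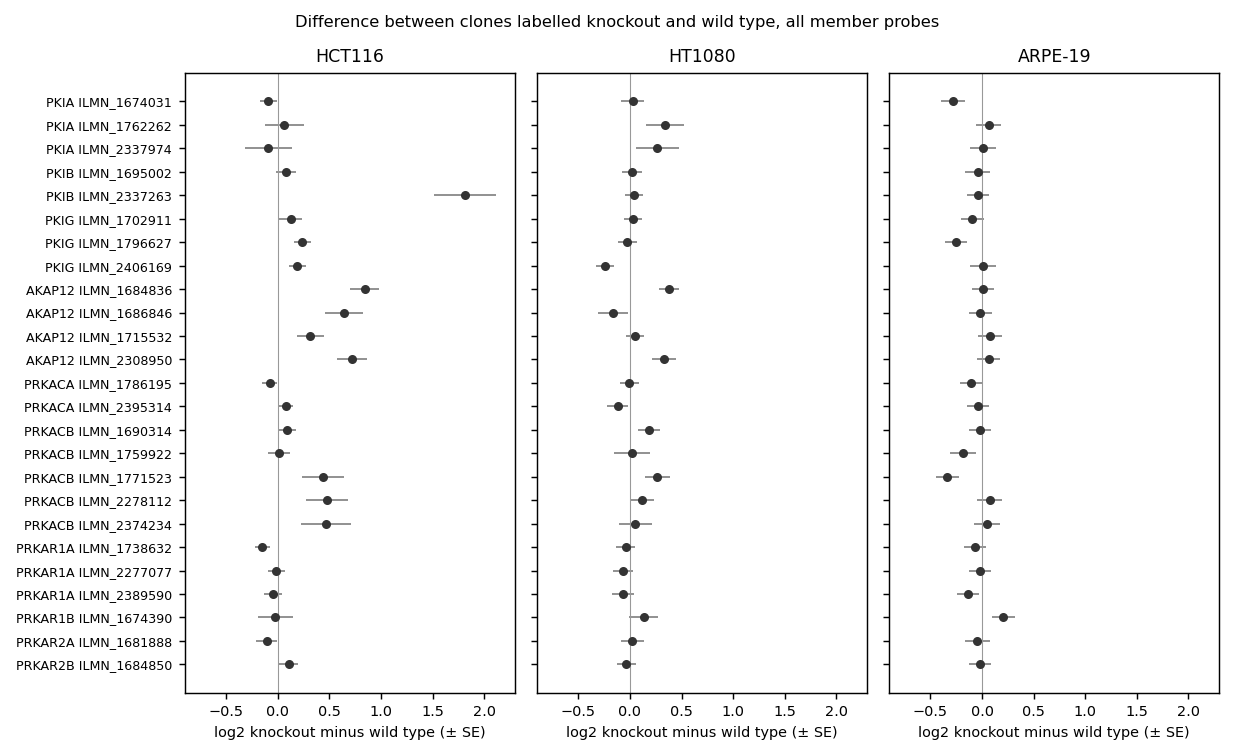
Log2 knockout minus wild type, as labelled, for each of the 25 probes (rows) in HCT116, HT1080 and ARPE-19 (panels); points are differences of clone means and lines are ± SE of the fit. PKIB ILMN_2337263 stands at 1.81 in HCT116 and near 0 in the other lines, and the 4 AKAP12 probes lie between 0.32 and 0.84 in HCT116.

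Counted over the family, 7 of the 25 probes had all HCT116 knockout clones above all wild-type clones and 2 had them all below, while 13.1% and 2.58% of all probes did so. The 7 were the 4 of AKAP12, 2 of PKIG and 1 of PKIB, and the 2 below were single probes of PRKACA and PRKAR1A. In HT1080 the counts were 5 above and 2 below, against 11.7% and 25.3% of all probes. The median difference of the 25 probes was 0.091 in HCT116 and 0.029 in HT1080, beside 0.056 and -0.037 over all probes. The genes were chosen on these contrasts, so nothing is read from the counts.

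Clones of the same label were also compared with one another, against the spread between the 2 arrays of a clone. A single F-test per probe took both labels of a line together, so its p belongs to neither label alone. This test, added after the member values were seen, does not use the difference between labels, but for PKIB and AKAP12 it reads the arrays on which they were chosen. Their part in it is a description. As it sets clones against array-to-array spread alone, passing says only that clones differed by more than repeated arrays. In HCT116, 10 of the 25 probes passed (limma F-test, adjusted p under 0.05 over all probes), beside 10.5% of all probes. They belonged to 5 genes: 3 probes each of AKAP12 and PRKACB, 2 of PKIA and 1 each of PKIB and PRKAR1B. Outside PKIB and AKAP12 the count was 6 of 19 probes. The knockout clones spanned 1.44 for PKIB ILMN_2337263 and 1.15 for PRKACB ILMN_2374234 (limma F-test over both labels, adjusted p = 2.3e-05 for PRKACB). The PKIB call was lost without knockout clone 10, which also stood highest in the difference between labels, the AKAP12 call without knockout clone 28, and the PRKAR1B call without wild-type clone 15 or 20.

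In HCT116, PKIA ILMN_2337974 spanned 0.94 among wild-type clones and 0.63 among knockout clones, and PRKAR1B spanned 0.72 and 0.38. PKIA ILMN_2337974 read -0.38 and -0.51 in HCT116 clone 15, 0.48 and 0.51 in clone 20 and 0.13 and 0.16 in clone 23. Its knockout clones 10, 21 and 28 had means of -0.28, -0.15 and 0.35 (limma F-test over both labels, adjusted p = 3.7e-05). PRKAR1B read 0.42 and 0.29 in clone 15, -0.40 and -0.33 in clone 20 and -0.040 and 0.040 in clone 23. Its knockout clones 10, 21 and 28 had means of 0.080, 0.11 and -0.27 (limma F-test over both labels, adjusted p = 0.0051). Over the 6 HCT116 clones PRKAR1B correlated at r = -0.96 with PKIA ILMN_2337974, -0.93 with ILMN_1762262 and -0.44 with ILMN_1674031. These are descriptions over few clones, named from all pairs of member probes.

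In HT1080, 2 of the 25 probes differed between clones of one label, beside 8.74% of all probes, and both were probes of PKIA. With ILMN_2337974 the arrays read 0.53 and 0.40 in knockout clone 8 and -0.064 and -0.13 in knockout clone 21. The wild-type arrays read -0.21 and -0.25 in clone 2 and 0.068 and 0.064 in clone 9 (limma F-test over both labels, adjusted p = 0.0041). Knockout clone 8 was the high one. The PKIA call was lost without knockout clone 8, when PRKACB passed in its place, and without knockout clone 21, when 0 member genes passed.

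**Figure D3:**
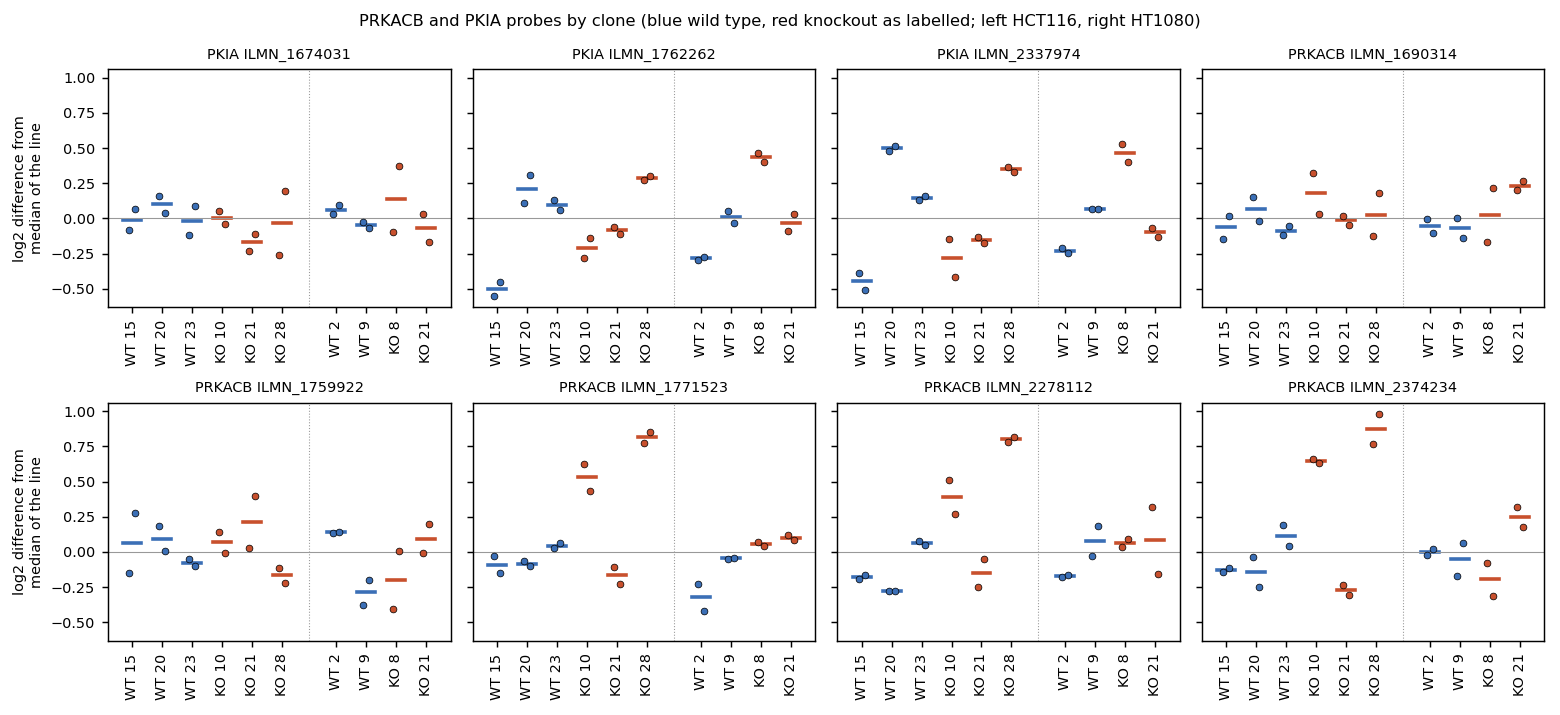
Log2 difference from the median of the line for the 3 PKIA and 5 PRKACB probes (vertical axis) in each clone of HCT116, left of the dotted line, and HT1080, right of it. Points are arrays and bars clone means, blue for wild type and red for knockout as labelled; 3 PRKACB probes are high in HCT116 knockout clones 10 and 28 and low in knockout clone 21, and 2 PKIA probes part wild-type clones 15 and 20.

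ARPE-19 was not used to choose the genes, so the members could be tested there. None of the 25 probes passed (limma, 0 at an adjusted p under 0.05, 3 at an unadjusted p under 0.05). Of all probes, 0.294% passed and 5.64% had an unadjusted p under 0.05. PKIB ILMN_2337263 read -0.017 in wild-type clone 23, 0.057 in the parental culture, 0.017 in knockout clone 25 and -0.049 in clone 30. Its difference was -0.036 ± 0.11 (SE, n = 2 and 2; limma, adjusted p = 0.992). AKAP12 ILMN_1684836 gave 0.0098 ± 0.10 (limma, adjusted p = 0.997), and its other probes lay between -0.017 and 0.076.

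The probes with an unadjusted p under 0.05 in ARPE-19 were PRKACB ILMN_1771523 at -0.34 ± 0.11 (limma, adjusted p = 0.691), PKIA ILMN_1674031 at -0.28 ± 0.12 (adjusted p = 0.853) and PKIG ILMN_1796627 at -0.25 ± 0.10 (adjusted p = 0.858). The PRKACB probes ILMN_2278112 and ILMN_2374234, which tracked ILMN_1771523 in HCT116, gave 0.073 and 0.050 here, and ILMN_1759922 and ILMN_1690314 gave -0.19 and -0.019. In all, 1 probe had both knockout arrays above both wild-type arrays and 8 had both below, against 17.3% and 17.2% of all probes, and the median was -0.023.

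The rest of the pathway was taken as 9 lists of 108 genes outside the family, of which 97 were measured, by 161 probes. In HCT116 a single gene, NR4A2, passed the test, and it rose (limma, adjusted p under 0.05 in 0.0317% of all probes). In HT1080 no gene passed (limma, 0 probes at an adjusted p under 0.05), beside 0.00423% of all probes, and in ARPE-19 none passed. At an unadjusted limma p under 0.05 stood 19 of 161 probes in HCT116 (11.8%, beside 8.32% of all probes). The counts were 13 of 161 in HT1080 (8.07%, beside 5.08%) and 5 of 161 in ARPE-19 (3.11%, beside 5.64%). Clones labelled knockout were all higher for 13.7% and all lower for 6.21% of the 161 probes in HCT116 (13.1% and 2.58% of all probes), and for 11.2% and 26.1% in HT1080 (11.7% and 25.3% of all probes). The medians of the 161 probes were 0.037 in HCT116 and -0.056 in HT1080.

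NR4A2, an orphan nuclear receptor and a known CREB target, was the 1 of 18 measured CREB target genes that passed. The gene lists were chosen with earlier results of these data known. That count is therefore a description, and no independent support is read from the passing of NR4A2. With ILMN_1782305 the HCT116 wild-type arrays lay between -0.55 and -0.31 and the knockout arrays between 0.31 and 0.98. The difference was 1.05 ± 0.099 (limma, adjusted p = 0.0158, n = 3 and 3 clones), and ILMN_2339955 gave 0.86 ± 0.097 (limma, adjusted p = 0.0339). In HT1080 both probes lay the other way, at -0.90 ± 0.13 (limma, adjusted p = 0.743) and -0.86 ± 0.12 (limma, adjusted p = 0.669), with no overlap. The difference between the lines passed the test itself, at 1.95 ± 0.17 (limma interaction, adjusted p = 0.00203) and 1.72 ± 0.16 (limma interaction, adjusted p = 0.00235), where 0.0296% of all probes passed. The HCT116 call was lost when the probes of a gene were averaged. It was also lost on leaving out wild-type clone 20, wild-type clone 23, knockout clone 10 or knockout clone 28. In these settings 0 pathway genes passed, and 0 to 3 passed over the whole array, against 15 in the main fit. Without knockout clone 21, 3 pathway genes passed, beside 164 of all probes.

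Other CREB targets did not pass in the main fits. The neurotrophin gene BDNF had 1 of its 7 probes, ILMN_1751276, at -1.53 ± 0.25 in HCT116 (limma, adjusted p = 0.202). Its wild-type arrays lay between 0.28 and 0.71, and its knockout arrays read -1.51 and -1.39 in clone 10, -0.33 and -0.28 in clone 21 and -1.04 and -1.33 in clone 28. The other 6 BDNF probes ranged from -0.49 to 0.11. Of these, ILMN_1809543 (-0.49 ± 0.13) and ILMN_1761910 (-0.38 ± 0.099) also had all knockout clones below all wild-type clones. BDNF passed on first arrays alone, without knockout clone 21 and with the array number as a block. Those settings called 25, 164 and 221 of all probes, against 15 in the main fit. RGS2, which speeds the shut-off of G proteins, gave -1.26 ± 0.34 (limma, adjusted p = 0.549), with knockout clone 10 near 0 and clones 21 and 28 low.

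None of the 23 measured A-kinase anchoring proteins outside the family passed in the main fit of any line. AKAP1 came nearest, in ARPE-19, at 0.88 ± 0.15 (limma, adjusted p = 0.0696). In HT1080 the filament protein SYNM had 1 probe, ILMN_1712075, at 1.08 ± 0.11 (limma, adjusted p = 0.300), with wild-type arrays from -0.53 to -0.44 and knockout arrays from 0.44 to 0.82, while its other probe gave -0.12. AKAP13 gave -0.41 ± 0.18 and AKAP11 -0.40 ± 0.19 there (limma, adjusted p = 0.864 for each), but each rested on 1 knockout clone: AKAP13 was -0.16 without clone 8 and AKAP11 -0.12 without clone 21. In HCT116 the largest differences without overlap were 0.21 for CBFA2T3 and 0.20 for AKAP7.

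The enzymes that make and break down cyclic AMP did not pass in the main fits either. Of 9 adenylyl cyclases measured, ADCY1 had the largest difference without overlap in HCT116 or HT1080, at -0.58 ± 0.33 in HT1080. It came from wild-type clone 2, at 1.03 beside -0.052 in wild-type clone 9 and -0.061 and -0.13 in the knockout clones, was -0.044 without clone 2, and was -0.095 with the other ADCY1 probe. Of 15 phosphodiesterases, PDE3B gave -0.60 ± 0.22 in HCT116 (limma, adjusted p = 0.591), or -0.29 without knockout clone 10, and PDE4A -0.61 ± 0.090 in HT1080 (limma, adjusted p = 0.743). PDE7B gave 0.64 ± 0.11 in ARPE-19 (limma, adjusted p = 0.0793). Among 7 CREB family genes and coactivators CREM gave 0.30 ± 0.10 in HCT116 and 0.21 ± 0.12 in HT1080. In HT1080 CREBBP gave -0.36 ± 0.087 and 0.16 ± 0.088 with different probes. CREB1 ILMN_1841334 gave 0.33 ± 0.11 there, and its other probes lay between -0.039 and 0.054. The 13 genes of G protein signalling, 2 other PKA catalytic genes and 1 exchange factor lay between -0.28 and 0.24 in HCT116 and HT1080 where their clones did not overlap. Of 9 measured binding partners of AKAP12, the kinase gene SRC gave -0.24 and 0.15 with different probes in HCT116.

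**Figure D4:**
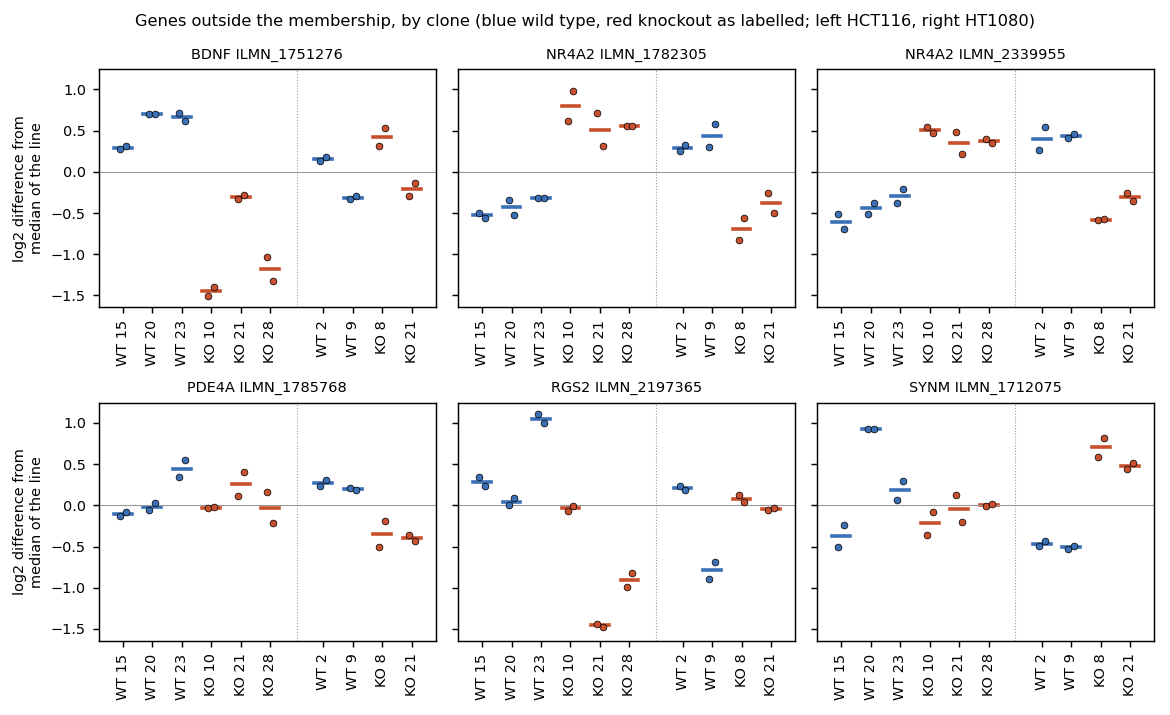
Log2 difference from the median of the line (vertical axis) for 6 probes of pathway genes outside the family, in HCT116 clones left of the dotted line and HT1080 clones right of it; points are arrays and bars clone means, blue for wild type and red for knockout as labelled. The probes were picked for size after their values were seen: 0.6 or more without overlap in HCT116 or HT1080, or past the test. PDE3B, at -0.60 in HCT116, fell just short. Only NR4A2 passed, above the wild-type clones in HCT116 and below them in HT1080.

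PKIB and AKAP12 both lie on chromosome 6, and the 5 nearest protein-coding genes to either side of each were examined, 9 of 10 being measured in both cases. None of the 12 probes around PKIB passed in HCT116, and 4 of them (33.3%, beside 13.1% of all probes) had all knockout clones above all wild-type clones: 2 of SMPDL3A and 1 each of CLVS2 and NKAIN2. SMPDL3A, which encodes an acid sphingomyelinase-like phosphodiesterase and lies the second after PKIB, gave 0.72 ± 0.19 and 0.32 ± 0.11 with its probes (limma, adjusted p = 0.549 and 0.591). Its knockout clone means with ILMN_1796349 were 0.97 in clone 10, 0.071 in clone 21 and 0.76 in clone 28, above wild-type clones between -0.17 and -0.040. None of the 11 probes around AKAP12 separated the HCT116 labels, and MTHFD1L, its neighbour before the start, gave 0.54 ± 0.22 with overlapping clones, or 0.29 without knockout clone 28.

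The probes most like PKIB ILMN_2337263 over the 10 clones were those of OR1F2P (r = 0.987), TMEM69 (0.977), PEX5L (0.972), MSMO1 (0.963) and TEX11 (0.961). Their HCT116 differences were far smaller, from 0.15 to 0.39, and the correlation takes no account of size. As this PKIB probe was flat in HT1080, its r rested mainly on the HCT116 clones. The probes most like AKAP12 ILMN_1684836 were 2 of CD163L1 (r = 0.960 and 0.944), then SERAC1 (0.958), TFDP3 (0.946) and PRSS58 (0.942). CD163L1, a scavenger receptor gene, differed by 0.86 and 0.92 in HCT116 and by 0.23 and 0.16 in HT1080, near AKAP12 in HCT116 and smaller than the 0.38 of AKAP12 ILMN_1684836 in HT1080. These likenesses are descriptions over clones that share arrays, and they were picked from all named probes as the highest.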

How the data were processed

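The deposited table held log2-scale values of 24 Illumina arrays. Per the labels, RNA was purified on RNeasy columns and labelled with biotin using a MessageAmp kit. The authors had centred each probe on its median within a line (largest median 5e-07). Background correction, normalization, software and the log base are not given in the sources used here. Base 2 was assumed. Signal over background is therefore unknown, and the number of arrays limits the precision.

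The 2 arrays of a clone were averaged. Knockout was compared with wild type per probe, within each line and between HCT116 and HT1080, with limma 3.58.1 (lmFit and eBayes, two-sided) in R 4.3.3. Each ± is the SE of this fit. There eBayes draws the variance of a probe towards that of all probes. The SE can therefore be smaller or larger than the clone values of that probe alone would give. Benjamini-Hochberg adjustment ran over all 47323 probes (47319 in ARPE-19, where 4 had missing values), at a threshold of 0.05. Clones of one label were compared by a limma F-test against the spread between arrays, with both labels of a line in the same test. Fits were tested on simulated data.

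Probes were named from the platform annotation, updated through RefSeq (GRCh38.p14), and all 25 member transcripts matched. RefSeq supplied the promoters.

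The members and gene lists were chosen with earlier results of these data known. Named were all members, pathway genes that passed and otherwise up to 4 probes a list with the largest differences without overlap, the 5 most alike probes, TERF2IP, and 5 neighbours each side. Alternatives covered array centring, probe choice, single arrays, the prior, blocks and left-out clones. P-values for knockout against wild type, within or between lines, are set against the spread between these clones only, as moderated by eBayes. In ARPE-19 that spread is between single arrays, and the wild-type arm holds a clone and the parental culture. P-values of the F-test among clones of the same label are set against the spread between arrays of a clone.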

Additional observations from a re-analysis of the deposited data

Results flagged for a closer look

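NR4A2 is listed because its difference between clones labelled knockout and wild type was not the same in HCT116 and HT1080: the lines were 1.949 apart with ILMN_1782305 and 1.722 apart with ILMN_2339955, and both passed the limma interaction test. The gene list that holds NR4A2 was chosen with earlier results of these data known.

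Another 3 probes of members are listed because the clones did not overlap in either of 2 lines and lay in opposite directions. PKIG ILMN_1796627 was higher in HCT116 and lower in ARPE-19, 0.4903 apart. PKIG ILMN_2406169 was higher in HCT116 and lower in HT1080, 0.4337 apart. PRKACB ILMN_1771523 was higher in HT1080 and lower in ARPE-19, 0.5996 apart. These differences were not tested. Such opposite placements were found for 2.7%, 4.32% and 6.36% of all probes in the same pairs of lines.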

How the results depend on the processing

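Of 94 alternative values, 20 moved, by more than 1.5 times for a count or by 1 SD or more between clones for a difference, 74 stayed within these bounds and 0 reversed; the cause was not tested. Within the bounds, PKIB in HCT116 ranged from 1.359 to 2.079 and AKAP12 from 0.6643 to 0.9377 with clones left out, and the member genes differing between HCT116 clones of one label numbered 4 to 5. A count can stay equal while the genes differ, as in HT1080 without knockout clone 8, where PRKACB took the place of PKIA. The PKIB difference in HCT116 was 0.9457 for the mean of its probes. The AKAP12 difference in HT1080 was 0.1482 for the mean of its probes, 0.2848 on first arrays and 0.4666 on second arrays. Pathway genes called in HCT116 (1) numbered 0 with probes averaged per gene, 2 on first arrays, and 0 to 3 with clones left out. Over all probes 15 were called in the main fit, 25 on first arrays and 0 to 164 with clones left out. With all clones kept and no block, pathway genes called in HT1080 stayed at 0 and those called between the lines at 1. With an HT1080 clone left out, 1 clone remained in an arm, and counts of such fits are not given. With the array number as a replicate block and the clone as a random block, the counts were 3 in HCT116, 3 in HT1080 and 4 between the lines. Over all probes that setting called 221, 89 and 219, against 15, 2 and 14 in the main fits. The array numbers did not pair the samples. The difference between the first and second array of a wild-type clone was set against that of a knockout clone over all probes. The correlation was -0.16 to 0.15 over 9 pairs of clones in HCT116 and -0.037 to 0.12 over 4 pairs in HT1080. Member genes differing between HT1080 clones of one label (1) numbered 2 with each array centred, 2 with the mean of the probes, and 0 to 1 with clones left out. Where an arm was left with 1 clone, that clone was assumed to vary like the others. Values of single probes without a clone were added after seeing the data. A filter on dim probes was not run, because centred values hold no signal level. The number of clones and arrays limits all values.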
